A study of Homo sapiens with 11 samples.

Results

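DDIT4, the 3 sestrin genes and the 3 GADD45 genes are small families of stress-induced genes. They were chosen by name, with earlier results of these data known, and all 7 were among the 61464 genes of the count table. They were followed in polyadenylated RNA of HCT116, a widely used line of human colon carcinoma cells, epithelial and with a ras mutation per the labels. The cells had been exposed for 48 h to DMSO, the solvent control (3 libraries), to the Ganoderma triterpenoid extract GTEA1 (4 libraries) or to the extract GTEA7 (4 libraries). No dose was given, the composition of the extracts is not described in the labels, and every library was from this 1 line and was labelled as batch 1. Whether replicates were separate cultures is not stated, so the p-values below measure only the spread between these libraries, which may be technical.

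DDIT4, also called REDD1, is known as an inhibitor of mTORC1, the kinase complex that couples growth to nutrients, and acts through the TSC complex. Sestrins restrain the same kinase from another side: they bind the GATOR2 complex of the lysosomal amino acid sensing machinery, and SESN2 is known as a leucine sensor. GADD45 proteins bind the kinase MAP3K4, which feeds the p38 and JNK cascades, and are also known to bind CDK1 and the replication clamp PCNA. Background knowledge ties SESN2 and DDIT4 to ATF4 and to low oxygen, SESN3 to FOXO factors, and GADD45A to DNA damage.

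Total counts per library were between 13742326 and 19304211. Levels are given as CPM, a gene's read count relative to the total of its library after TMM scaling of the libraries, and a value after ± is an SD for a CPM (n = 3 for DMSO, n = 4 for each extract) or the fit's standard error for a log2 fold change. A gene passed where its adjusted p in edgeR's quasi-likelihood test was under 0.05 among the 17963 genes tested. Of the 7 genes, 6 had enough counts to be tested, with 48 to 2920 counts in a library and a CV over the libraries of a group of 2.22% to 13.5%, and GADD45G did not. Of 10 markers of colon epithelium, 7 reached a mean of 1 CPM in every group, and the summed level of the list was between 2248 and 2399 CPM in DMSO, 2784 and 2913 in GTEA1 and 2249 and 2348 in GTEA7. The markers did not move together in GTEA1. The means of KRT19 (452 CPM in DMSO, 1027 in GTEA1), EPCAM, CDH1 and CLDN7 were higher than in DMSO. Those of KRT8 (1161 and 972 CPM), KRT18 and CDX2 were lower. VIL1 and LGALS4 were below 1 CPM and CDX1 had 0 counts. The 12 markers of leukocytes, endothelium and fibroblasts summed to 55.5 to 58.0 CPM in DMSO, 39.8 to 47.6 in GTEA1 and 38.3 to 48.3 in GTEA7, nearly all of it COL1A1, while CD3E had 0 counts and the leukocyte gene PTPRC had a group mean of at most 0.0836 CPM. Their part in the results was not tested. In such bulk RNA, fewer cells with a transcript and less of it per cell cannot be told apart.

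GTEA1 against DMSO asked what this extract did to the family. In GTEA1, DDIT4, SESN2, GADD45A and GADD45B rose 4.40-fold to 8.74-fold, SESN3 fell and SESN1 did not pass. That is 5 of 6 tested genes past the threshold, against 71.8% of all genes tested, of which 35.6% were higher and 36.2% lower. The median log2 fold change of the 6 was 2.20, beside -0.01 for all genes. The groups did not overlap for the same 5 genes, as for 68.7% of all genes (33.9% all higher, 34.8% all lower), so passing by itself does not set these genes apart. A rise of at least 2 on the log2 scale, which these 4 had, was seen in 2.17% of all genes tested. This cutoff lies just under the smallest rise of the 4 (2.14, DDIT4), so the share is a description and not a test.

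GTEA7 against DMSO asked the same of the other extract, with the same DMSO libraries as the control. The changes were smaller: DDIT4, SESN2, SESN3 and GADD45A fell, with log2 fold changes of -0.73, -0.66, -0.32 and -0.21, and SESN1 and GADD45B did not pass. These 4 of 6 stand beside 22.5% of all genes past the threshold, 12% higher and 10.4% lower, and their libraries did not overlap with DMSO, as for 30.5% of all genes (15.6% all higher, 14.9% all lower). The median of the 6 was -0.26, beside -0.01 for all genes.

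GTEA7 against GTEA1 tested the difference between the extracts directly. DDIT4, SESN2, GADD45A and GADD45B were lower in GTEA7 and SESN3 was higher, 5 of 6 against 72.7% of all genes (36.2% higher, 36.4% lower). The groups did not overlap for these 5, as for 65.3% of all genes (32.8% all higher, 32.5% all lower). The doses are unknown, so this compares the libraries as prepared and not the extracts at equal amounts.

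**Figure D1:**
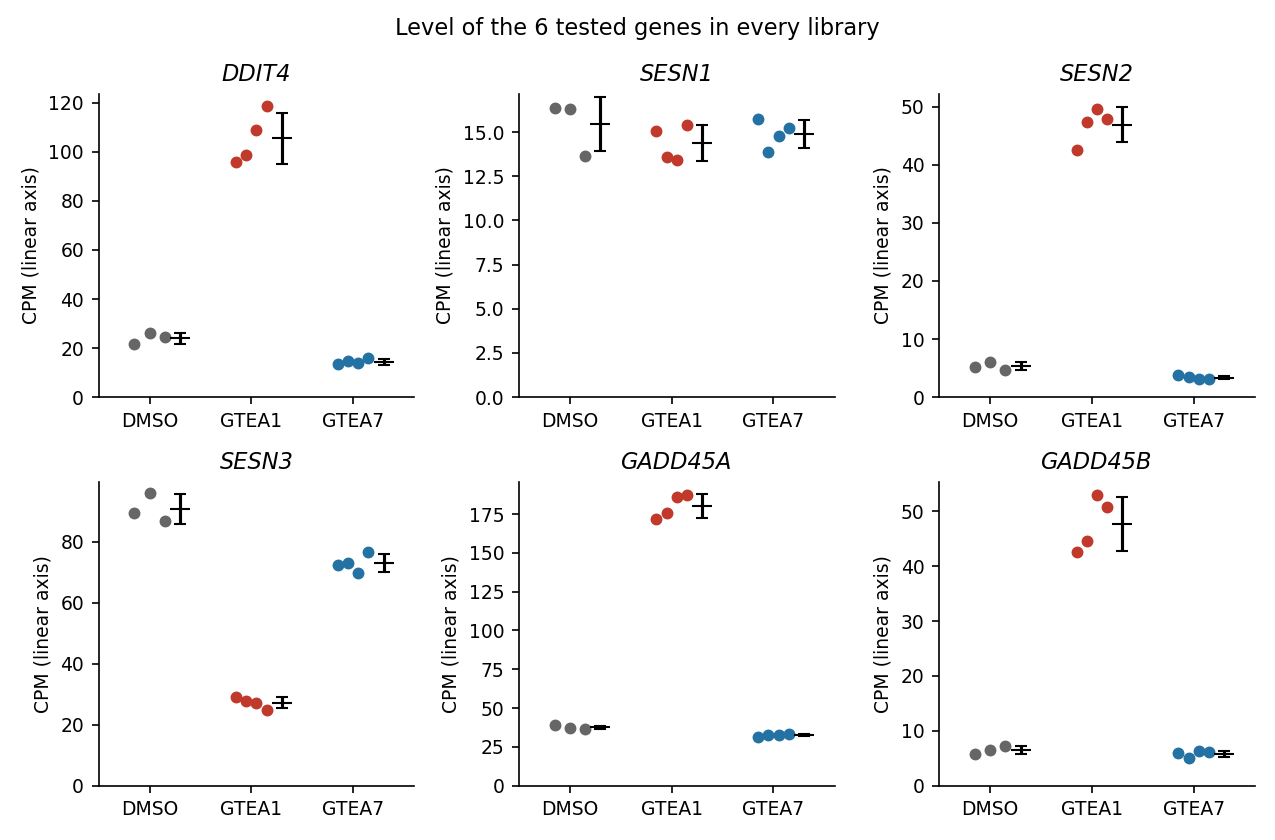
CPM of the 6 tested genes on linear axes from 0, with 1 point per library, and the mean and SD beside the points of each group (DMSO n = 3, GTEA1 and GTEA7 n = 4). The GTEA1 libraries lie above all others for DDIT4, SESN2, GADD45A and GADD45B and below all others for SESN3, while the 3 groups overlap for SESN1.

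To show what lies just upstream of the genes that moved most, the 250 bases before the annotated start of DDIT4, SESN2 and GADD45B, which rose in GTEA1, and of SESN3, which fell, are given 5′ to 3′ from RefSeq (GRCh38.p14). Windows were found for 6 of the 7 genes (8 windows, with 3 starts for SESN1), and not for GADD45A. Capitals mark matches, on either strand, to 6 short motifs: TGATGNAA (C/EBP-ATF), TGANGTCA (CRE-like), CCAAT (bound by NF-Y, and read ATTGG on the other strand), CACGTG (E-box), ACGTG (hypoxia core, which lies within every E-box) and TATAAA (the TATA box, a core promoter element).
DDIT4, chr10:72273674-72273923, plus strand: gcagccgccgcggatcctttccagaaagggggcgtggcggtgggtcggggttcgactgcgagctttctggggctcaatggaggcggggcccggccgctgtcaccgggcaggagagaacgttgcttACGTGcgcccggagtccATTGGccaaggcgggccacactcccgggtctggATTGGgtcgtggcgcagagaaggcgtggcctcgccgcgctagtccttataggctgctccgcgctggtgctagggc
SESN2, chr1:28259268-28259517, plus strand: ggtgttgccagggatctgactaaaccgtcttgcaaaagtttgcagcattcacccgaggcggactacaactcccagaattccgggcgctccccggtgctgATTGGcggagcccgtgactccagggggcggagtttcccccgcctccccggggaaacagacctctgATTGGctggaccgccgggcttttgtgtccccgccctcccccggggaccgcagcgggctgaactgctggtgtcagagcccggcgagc
GADD45B, chr19:2475877-2476126, plus strand: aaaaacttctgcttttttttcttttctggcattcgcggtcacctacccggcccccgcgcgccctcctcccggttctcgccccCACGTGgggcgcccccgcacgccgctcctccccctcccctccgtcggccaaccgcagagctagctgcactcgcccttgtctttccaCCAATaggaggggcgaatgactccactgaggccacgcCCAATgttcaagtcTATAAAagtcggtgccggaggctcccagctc
SESN3, chr11:95232476-95232725, minus strand: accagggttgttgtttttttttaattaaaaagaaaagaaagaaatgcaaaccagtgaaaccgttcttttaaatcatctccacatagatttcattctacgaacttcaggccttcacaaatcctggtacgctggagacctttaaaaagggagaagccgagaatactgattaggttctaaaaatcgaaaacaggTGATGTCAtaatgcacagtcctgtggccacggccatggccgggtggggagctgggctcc
DDIT4, SESN2 and GADD45B each held 2 matches to CCAAT and SESN3 held none, where 32% of the 35114 RefSeq windows of this length hold at least 1. The share of windows with 2 or more was not counted. SESN1, which did not pass in either extract, held 1 match in 2 of its 3 windows, and the window of GADD45G held 1. DDIT4 also had a hypoxia core 125 bases upstream (18.5% of windows hold one), and GADD45B an E-box at 168 (6.35%) and a TATA box at 31 (10.7%). The SESN3 window held a CRE-like match 59 bases upstream (6.87%). Among the windows of the family, the C/EBP-ATF letters, found in 3.14% of all windows, occurred only before GADD45G. A match describes the sequence and is not evidence of binding, and sites further away were not searched.

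DDIT4 (ENSG00000168209) encodes the mTORC1 inhibitor REDD1. In DMSO replicates 1 to 3 it was at 21.6, 26.0 and 24.5 CPM. In GTEA1 replicates 1 to 4 it was at 96.0, 98.6, 109 and 119 CPM, and in GTEA7 at 13.4, 14.8, 13.7 and 16.0 CPM. All GTEA1 libraries were above and all GTEA7 libraries below every DMSO library. The rise in GTEA1 was 4.40-fold (95% interval 3.94 to 4.91; log2 fold change 2.14 ± 0.08; adjusted p = 4.4e-16, edgeR). The fall in GTEA7 was 1.66-fold (95% interval 1.44 to 1.91; log2 fold change -0.73 ± 0.10; adjusted p = 1.2e-05, edgeR). Between the extracts the level was 7.31-fold lower in GTEA7 (95% interval 6.56 to 8.14; adjusted p = 1.6e-18, edgeR). An antisense gene that overlaps an exon, DDIT4-AS1, had 0 counts in every library.

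SESN2 (ENSG00000130766), the leucine-binding sestrin, had the largest rise of the family. DMSO libraries held 5.17, 6.10 and 4.69 CPM, GTEA1 libraries 42.6, 47.4, 49.7 and 47.9 CPM, and GTEA7 libraries 3.74, 3.48, 3.13 and 3.15 CPM. Again no library of either extract fell within the DMSO range, with GTEA1 far above it and GTEA7 below. SESN2 rose 8.74-fold in GTEA1 (95% interval 7.77 to 9.83; log2 fold change 3.13 ± 0.08; adjusted p = 3.6e-35, edgeR), which ranked 100 from the top among all tested genes. It fell 1.58-fold in GTEA7 (95% interval 1.32 to 1.90; log2 fold change -0.66 ± 0.13; adjusted p = 0.00012, edgeR), from 48 to 68 counts per GTEA7 library. Set against GTEA1, GTEA7 was 13.8-fold lower (95% interval 12.3 to 15.5; adjusted p = 2.7e-39, edgeR), rank 32 from the bottom of that comparison.

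SESN3 (ENSG00000149212) went the other way in GTEA1. It was at 89.4, 96.1 and 86.8 CPM in DMSO, at 29.2, 27.8, 27.3 and 24.9 CPM in GTEA1, and at 72.3, 73.2, 69.8 and 76.8 CPM in GTEA7. The 3 groups were separate, with DMSO highest, GTEA7 next and GTEA1 lowest. SESN3 fell 3.34-fold in GTEA1 (95% interval 3.11 to 3.59; log2 fold change -1.74 ± 0.05; adjusted p = 1.9e-33, edgeR), and 6.08% of all genes fell by at least 1.5 on the log2 scale there. That cutoff lies close to the fall of SESN3 itself, so the share is a description. In GTEA7 SESN3 fell 1.25-fold (95% interval 1.17 to 1.33; log2 fold change -0.32 ± 0.04; adjusted p = 2.3e-07, edgeR). It was thus 2.68-fold higher in GTEA7 than in GTEA1 (95% interval 2.50 to 2.87; adjusted p = 2.4e-30, edgeR). The antisense gene AP000787.1 overlaps an exon of SESN3 and was at a mean of 1.98 CPM in DMSO, 0.990 in GTEA1 and 2.05 in GTEA7. Without a stated strand setting, reads in the overlap cannot be told apart.

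SESN1 (ENSG00000080546), a sestrin known from the response to DNA damage, was at 16.4, 16.3 and 13.7 CPM in DMSO. GTEA1 libraries were at 15.0, 13.6, 13.4 and 15.4 CPM and GTEA7 libraries at 15.7, 13.9, 14.8 and 15.2 CPM. All 3 groups overlapped. The log2 fold change was -0.11 ± 0.08 in GTEA1 (95% interval -0.28 to 0.05; adjusted p = 0.22, edgeR) and -0.06 ± 0.08 in GTEA7 (95% interval -0.22 to 0.10; adjusted p = 0.64, edgeR). The extracts differed by 0.05 ± 0.08 (95% interval -0.10 to 0.21; adjusted p = 0.56, edgeR). These intervals leave room for a fall of at most 1.21-fold in GTEA1 and 1.17-fold in GTEA7. With library size as the only scaling, SESN1 was at -0.27 in GTEA1 and passed (adjusted p = 0.0035), while the median of all genes moved to -0.167.

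GADD45A (ENSG00000116717), the family member best known as a DNA damage and stress gene, had the most reads of the 7 in GTEA1, and SESN3 in DMSO and GTEA7. Its level was 38.8, 37.5 and 36.4 CPM in DMSO, 172, 176, 186 and 188 CPM in GTEA1, and 31.6, 32.7, 32.6 and 33.3 CPM in GTEA7. The GTEA1 libraries stood far above DMSO and the GTEA7 libraries just below it, without overlap. The rise in GTEA1 was 4.80-fold (95% interval 4.51 to 5.10; log2 fold change 2.26 ± 0.04; adjusted p = 4.4e-41, edgeR). The fall in GTEA7 was 1.16-fold (95% interval 1.08 to 1.24; log2 fold change -0.21 ± 0.05; adjusted p = 0.0018, edgeR). GTEA7 was 5.54-fold lower than GTEA1 (95% interval 5.24 to 5.87; adjusted p = 2.1e-44, edgeR).

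GADD45B (ENSG00000099860), known as a target of NF-kappaB and TGF-beta signalling, was at 5.70, 6.53 and 7.18 CPM in DMSO. It was at 42.6, 44.6, 53.0 and 50.9 CPM in GTEA1 and at 5.87, 5.02, 6.31 and 6.11 CPM in GTEA7. GTEA1 was apart from both other groups, which overlapped. The rise in GTEA1 was 7.43-fold (95% interval 6.58 to 8.40; log2 fold change 2.89 ± 0.09; adjusted p = 3.2e-31, edgeR), rank 130 from the top. In GTEA7 the log2 fold change was -0.15 ± 0.12 (95% interval -0.40 to 0.09; adjusted p = 0.42, edgeR), so the data allow a fall of up to 1.32-fold. GTEA7 was 8.26-fold lower than GTEA1 (95% interval 7.38 to 9.23; adjusted p = 1.1e-33, edgeR).

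GADD45G (ENSG00000130222), the member studied most in differentiation and in male sex determination, was close to silent. It had 21 counts over all 11 libraries: 5 over DMSO, 10 over GTEA1 and 6 over GTEA7, and no library had more than 5. Pooled over the libraries of a group this was 0.0999 CPM in DMSO, 0.174 in GTEA1 and 0.0868 in GTEA7, where 3 counts over a group come to 0.0599, 0.0522 and 0.0434 CPM. It was not tested, and a difference between the groups was not detectable at this depth.

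**Figure D2:**
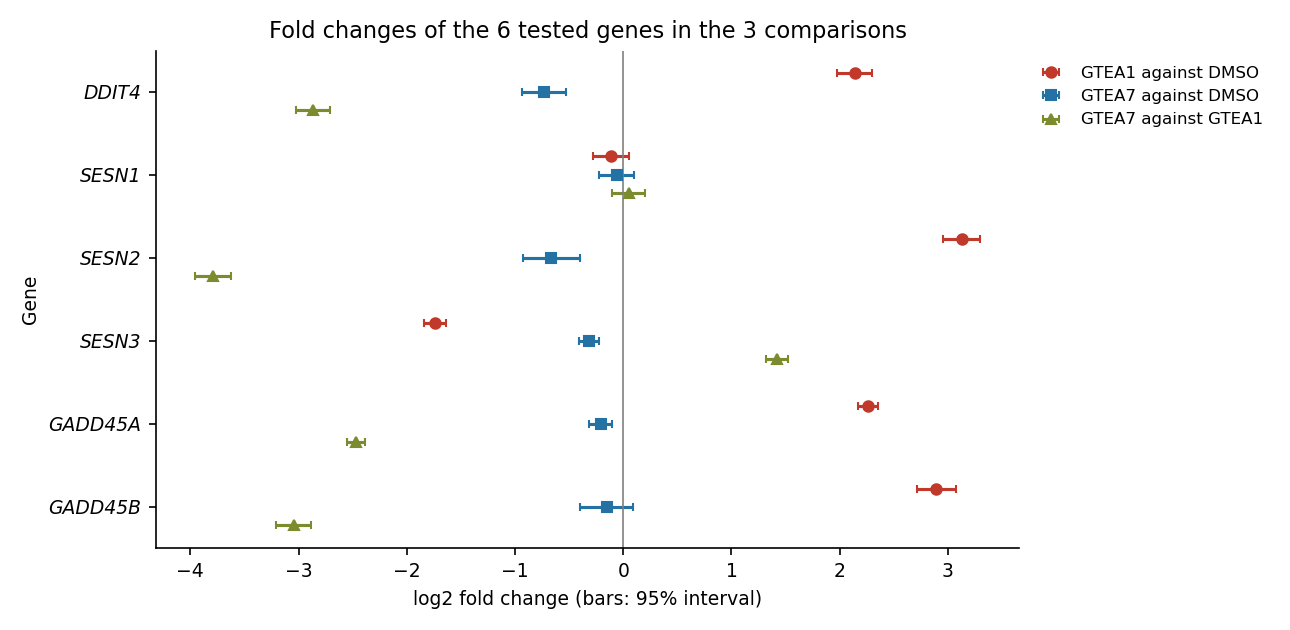
Log2 fold change of the 6 tested genes in the 3 comparisons, with 95% intervals from edgeR. GTEA1 against DMSO spans -1.74 (SESN3) to 3.13 (SESN2), whereas every value of GTEA7 against DMSO lies between -0.73 (DDIT4) and -0.06 (SESN1).

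Within the sestrins the balance between the 3 genes shifted. Per kb of the longest GENCODE v29 transcript, SESN3 made up 61.6% ± 1.61 of the summed sestrin level in DMSO, SESN1 28.5% ± 1.48 and SESN2 9.95% ± 0.68 (SD, n = 3). GTEA1 turned this order around: SESN2 made up 66.1% ± 2.41, SESN1 20.0% ± 1.72 and SESN3 13.9% ± 1.28 (SD, n = 4). In GTEA7 the shares were 59.4% ± 1.46 for SESN3, 33.0% ± 1.31 for SESN1 and 7.60% ± 0.63 for SESN2 (SD, n = 4). The SESN2 share in GTEA1 ranged from 62.7% to 68.3% and in DMSO from 9.48% to 10.7%. Summed over the sestrins, the level on this scale was 15.4 ± 1.07 CPM per kb in DMSO, 20.5 ± 0.62 under GTEA1 and 12.9 ± 0.41 under GTEA7.

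These shares and their sum depend on the length assumed, in part down to the direction, because the longest SESN3 transcript has 9558 bases and its median-length one 1408. With the median-length transcripts, SESN2 had 1.86% ± 0.14 in DMSO and 28.0% ± 2.09 in GTEA1, and SESN3 77.9% ± 1.25 and 39.9% ± 2.32. The share of SESN2 was still higher in GTEA1 than in DMSO and that of SESN3 still lower, but SESN2 then had the smallest of the 3 shares in GTEA1. The share of SESN1 turned around, from 20.3% ± 1.22 in DMSO to 32.1% ± 2.11 in GTEA1. The sum turned around as well, from 82.8 ± 4.95 CPM per kb in DMSO to 48.6 ± 0.56 under GTEA1 and 69.0 ± 2.33 under GTEA7, so whether all sestrin RNA together was higher or lower under GTEA1 cannot be read from these counts. These shares rest on the same levels as the fold changes above and are a description.

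**Figure D3:**
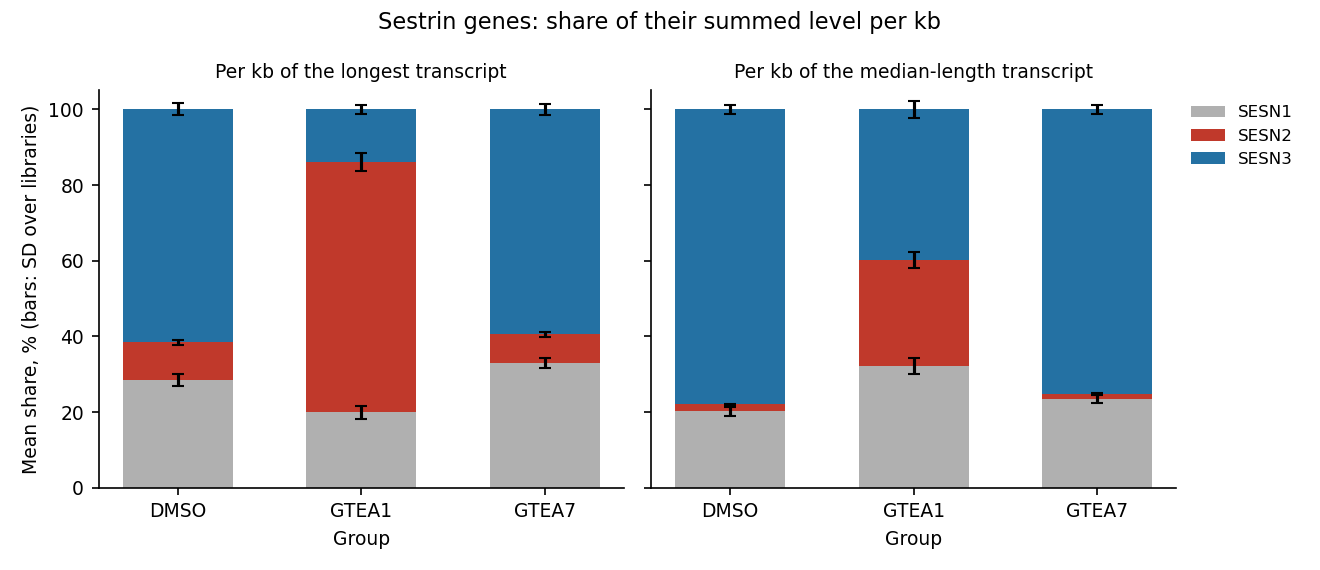
Mean share of each sestrin gene in their summed level per kb, by group, with the SD over libraries at the top of each segment (DMSO n = 3, GTEA1 and GTEA7 n = 4). SESN2 goes from 9.95% in DMSO to 66.1% in GTEA1 with the longest transcripts (left) and from 1.86% to 28.0% with median-length transcripts (right).

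The GADD45 family was less altered in its make-up than in its amount. Per kb of the longest transcript, GADD45A held 88.3% ± 1.79 of the family's level in DMSO, 83.4% ± 0.90 under GTEA1 and 87.9% ± 1.01 under GTEA7. GADD45B held 11.3% ± 1.42, 16.4% ± 0.88 and 11.7% ± 1.03. The summed level went from 28.4 ± 0.33 CPM per kb in DMSO to 144 ± 7.52 under GTEA1, and was 24.7 ± 0.59 under GTEA7.

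On the same per-kb scale the order of the levels in DMSO was GADD45A (25.1 CPM per kb), DDIT4 (13.7), SESN3 (9.50), SESN1 (4.40), GADD45B (3.22), SESN2 (1.54) and GADD45G (0.105), and no neighbours overlapped. In GTEA1 it was GADD45A (120), DDIT4 (60.4), GADD45B (23.8), SESN2 (13.6), SESN1 (4.09), SESN3 (2.86) and GADD45G (0.164), again with no overlap. In GTEA7 the order of DMSO was kept in the means, but DDIT4 (7.64 to 9.17 CPM per kb) and SESN3 (7.30 to 8.03) overlapped. With the median-length transcripts SESN3 would stand first in DMSO (64.5 CPM per kb against 43.0 for GADD45A) and in GTEA7 (51.9 against 37.2). In GTEA1 the sestrins would then stand in the reverse order, SESN3 at 19.4, SESN1 at 15.6 and SESN2 at 13.6 CPM per kb.

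For each tested gene the 3 genes with the most similar pattern were sought among 15330 genes by Pearson's r of log2 CPM over the 11 libraries, which share their 3 groups, so r mostly describes how GTEA1 stood apart. GADD45A was closest to MKNK2, a kinase downstream of ERK and p38 (r = 0.999), the receptor kinase AXL (r = 0.999) and the GTP-binding protein gene GTPBP2 (r = 0.999). GADD45B was closest to ARHGEF2, STK40 and GPBP1L1 (r = 0.998 each). A high r says nothing of the size of a change. In GTEA1, GADD45B rose by 2.89 on the log2 scale, ARHGEF2 by 2.56 and GPBP1L1 by 0.57. SESN2 was closest to PEAR1, the receptor gene EPHA2 (r = 0.998 each) and the splicing regulator MBNL2 (r = 0.997). DDIT4 was closest to POFUT2 (r = 0.998), the AP-1 subunit JUNB (r = 0.997) and AHNAK2 (r = 0.996). SESN3 was closest to the long noncoding RNA UCA1, to ENC1 (r = 0.998 each) and to PRDX2, a peroxiredoxin (r = 0.997). SESN1 had no such close match: RNF114 reached 0.869, PARD3B 0.851 and ENSG00000279386 0.850.

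The genes around the family were grouped in 8 lists with 112 genes, of which 109 were tested. Among all genes tested, 35.6% were higher and 36.2% lower in GTEA1, and 12% and 10.4% in GTEA7. Among direct partners and relatives, DDIT4L, the paralog of DDIT4, moved against it in GTEA1 and with it in GTEA7. DDIT4L fell from 59.2 ± 5.39 CPM in DMSO to 11.2 ± 0.73 in GTEA1 (log2 fold change -2.41 ± 0.07; adjusted p = 2.6e-34, edgeR) and to 38.2 ± 2.01 in GTEA7 (-0.64 ± 0.05; adjusted p = 1.3e-13, edgeR). SQSTM1, the autophagy receptor p62 that binds sestrins, rose in both, by 2.45 ± 0.06 and 0.49 ± 0.06 on the log2 scale, and so did NFE2L2, which encodes NRF2 (0.88 ± 0.04 and 0.19 ± 0.04). SRXN1, sulfiredoxin, rose in GTEA1 (3.24 ± 0.27) from a mean of 0.357 to 3.45 CPM. PRDX2 fell in both (-1.33 ± 0.05 and -0.19 ± 0.04). PRDX1 rose in GTEA7 (0.27 ± 0.04) and was at 0.03 ± 0.04 in GTEA1, where it turned to -0.13 and passed with library size only. Of the 9 tested genes in this list, 3 rose and 4 fell in GTEA1 (3 and 6 with library size only), and 5 rose and 2 fell in GTEA7 (4 and 2). As shares, these were 33.3% and 44.4% in GTEA1 and 55.6% and 22.2% in GTEA7. PRDX3 (-0.26 ± 0.04) and RBX1 (-0.14 ± 0.06) were the other genes to fall in GTEA1, and PRDX3 (0.15 ± 0.04) and KEAP1 (0.15 ± 0.05) the other ones to rise in GTEA7. RBX1 did not pass without DMSO replicate 2 or GTEA1 replicate 2 or 4 (adjusted p 0.1 to 0.35, edgeR), with the replicate block (0.087), with no low-count filter (0.081) or with DESeq2's test (0.097). Nor did KEAP1 pass with library size only (0.18), or without DMSO replicate 1 or 3 or GTEA7 replicate 1 or 3 (0.055 to 0.28). TXNIP, a DDIT4 partner, had 4 counts in all and was not tested.

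AMPK, the energy-sensing kinase that sestrins are known to bind, had 8 of 10 tested genes of its list higher and 1 lower in GTEA1 (7 and 2 with library size only), beside 35.6% and 36.2% of all genes. The median log2 fold change was 0.52. PRKAB2 (1.34 ± 0.04), a beta subunit, PRKAG1 (0.88 ± 0.05) and PRKAG2 (0.61 ± 0.05), gamma subunits, and STRADA (0.91 ± 0.06) and CAB39 (0.54 ± 0.04), partners of the upstream kinase LKB1, rose. STK11, the LKB1 gene itself, rose by 0.23 ± 0.05 and did not pass with library size only (log2 fold change 0.07, adjusted p = 0.21, edgeR). CAMKK2, another upstream kinase, fell (-0.31 ± 0.05). Of the catalytic subunits, PRKAA2 rose (0.50 ± 0.06, adjusted p = 7.7e-09, edgeR). The other, PRKAA1, did not pass (adjusted p = 0.95, edgeR), but fell with library size only (-0.16). In GTEA7, CAB39 (0.20 ± 0.04), PRKAG1 (0.20 ± 0.05) and PRKAG2 (0.19 ± 0.05) rose, and the other 7 did not pass, among them STK11 at -0.10 ± 0.05. The 3 that rose were 30% of the tested genes, beside 12% higher and 10.4% lower among all genes.

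The TSC and mTOR complexes, through which DDIT4 and the sestrins act, had genes that moved either way. In GTEA1, 5 of 12 genes rose and 2 fell, beside 35.6% and 36.2% of all genes, their median being 0.05, but with library size only 3 rose and 5 fell. MAPKAP1 (0.46 ± 0.04) and RICTOR (0.40 ± 0.04), subunits of mTORC2, RHEB, the GTPase that TSC restrains (0.37 ± 0.05), MLST8 (0.25 ± 0.07) and MTOR itself (0.10 ± 0.04) rose, the last 2 not with library size only. The rise of MTOR also did not pass without DMSO replicate 1 (adjusted p = 0.097), DMSO replicate 3 (0.0502) or GTEA1 replicate 2 (0.064, edgeR). Nor did it pass with the compared groups alone (adjusted p = 0.055, edgeR). PRR5, another mTORC2 subunit, fell (-0.67 ± 0.12). DEPTOR, an inhibitor within both mTOR complexes, fell in GTEA1 (-0.39 ± 0.09) and rose in GTEA7 (0.46 ± 0.08). In GTEA7, 3 rose and 1 fell, or 25% and 8.33% beside 12% and 10.4% of all genes. With library size only, 1 rose and 2 fell, and 2 in all passed without GTEA7 replicate 3. RHEB (0.16 ± 0.05) and MAPKAP1 (0.13 ± 0.04) were the other higher genes, and neither passed without that library (adjusted p = 0.061 and 0.06, edgeR), nor MAPKAP1 without DMSO replicate 2 or 3 or GTEA7 replicate 1 or 2 (0.082, 0.11, 0.064 and 0.051). TSC2, the GTPase-activating subunit, was the one that fell (-0.20 ± 0.05), and in GTEA1 it was at -0.06 ± 0.05, or at -0.22 and past the threshold with library size only.

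The lysosomal amino acid sensing branch, whose GATOR2 complex sestrins bind, had 14 of 26 genes higher and 8 lower in GTEA1, the median being 0.17 (8 and 9 with library size only). As shares, 14 and 8 were 53.8% and 30.8%, beside 35.6% and 36.2% of all genes. SEC13, a GATOR2 subunit shared with COPII vesicles, rose most clearly (1.23 ± 0.04), KICS2 (0.44 ± 0.06) of the KICSTOR complex and SEH1L (0.37 ± 0.04) and WDR59 (0.31 ± 0.04), further GATOR2 subunits, rose, and FNIP2, a folliculin partner, fell (-1.33 ± 0.10). In GTEA7, 6 rose and 4 fell (4 and 4 with library size only), or 23.1% and 15.4% beside 12% and 10.4% of all genes. KICS2 (0.33 ± 0.06), the Rag GTPase RRAGD (0.24 ± 0.05) and SEH1L (0.19 ± 0.04) were among the higher genes. The lower ones were NPRL2 (-0.24 ± 0.07), ITFG2 (-0.24 ± 0.09), FLCN, the folliculin gene (-0.21 ± 0.07), and CASTOR2 (-0.17 ± 0.06). NPRL2 did not pass without DMSO replicate 2 (adjusted p = 0.1), FLCN without DMSO replicate 1 or 2 or GTEA7 replicate 2 (0.072 to 0.098), CASTOR2 without DMSO replicate 1 or 3 or GTEA7 replicate 2 or 3 (0.062 to 0.12), and ITFG2 without those 4 or GTEA7 replicate 4 (0.056 to 0.15, edgeR). ITFG2 also did not pass with the replicate block (adjusted p = 0.062, edgeR), and none of ITFG2, FLCN and CASTOR2 passed with no low-count filter (0.11, 0.08 and 0.051) or with DESeq2's test (0.1, 0.072 and 0.063). The 10 calls became 6 with DESeq2's test, 4 without DMSO replicate 1, 5 without GTEA7 replicate 2 and 6 without GTEA7 replicate 3.

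Among 12 substrates and output genes of mTORC1, 6 rose and 3 fell in GTEA1, around a median of 0.10 (4 and 6 with library size only). As shares, 6 and 3 were 50% and 25%, beside 35.6% and 36.2% of all genes. TFE3, a lysosomal transcription factor (1.64 ± 0.05), EIF4EBP1, which encodes the translation repressor 4E-BP1 (1.13 ± 0.06), and GRB10 (0.47 ± 0.05) rose. EIF4EBP2 (-0.98 ± 0.03), RPS6KB1, an S6 kinase gene (-0.33 ± 0.04), and ULK1, an autophagy kinase (-0.15 ± 0.06), fell. RPS6KB2, the other S6 kinase gene of the list, rose (0.27 ± 0.07), but did not pass with library size only (adjusted p = 0.17, edgeR). The fall of ULK1 did not pass with DESeq2's test (adjusted p = 0.053) or without DMSO replicate 2 (adjusted p = 0.069, edgeR). In GTEA7, 2 rose and 3 fell (1 and 3 with library size only), or 16.7% and 25% beside 12% and 10.4% of all genes. EIF4EBP1 (0.25 ± 0.06) and RPS6KB1 (0.13 ± 0.04) were the higher ones. RPS6KB1 did not pass with library size only (adjusted p = 0.17), or without DMSO replicate 3 (0.081) or GTEA7 replicate 2 (0.069, edgeR). ULK1 (-0.31 ± 0.06), GRB10 (-0.28 ± 0.05) and EIF4EBP2 (-0.15 ± 0.03) were the lower ones. These are RNA levels, and the activity of mTORC1 was not measured.

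Of 13 kinase genes downstream of GADD45 proteins, 4 rose and 2 fell in GTEA1, around a median of -0.03. These were 30.8% and 15.4%, beside 35.6% and 36.2% of all genes, and with library size only 2 rose and 9 fell. MAP3K4, the kinase that GADD45 proteins bind, was at -0.03 ± 0.05 in GTEA1 (-0.19 and past the threshold with library size only) and -0.05 ± 0.05 in GTEA7. MAP3K5, the ASK1 gene, was at -0.06 ± 0.05 and -0.10 ± 0.05, and passed as a fall in both with library size only. MAPK13, a p38 kinase (0.78 ± 0.04), and MAP2K7, an activator of JNK (0.43 ± 0.05), rose in GTEA1, as did MAP2K3 (0.24 ± 0.05) and MAPK11 (0.23 ± 0.09), the latter 2 not with library size only and MAPK11 also not without DMSO replicate 1 or 2 or GTEA1 replicate 1 or 2 (adjusted p 0.067 to 0.16, edgeR). MAPK10 (-2.23 ± 0.25) and MAP2K6 (-2.54 ± 0.39), at 2.71 and 1.34 CPM in DMSO, fell. In GTEA7, MAPK10 fell (-0.86 ± 0.19) and MAP2K4 rose (0.13 ± 0.05), or 7.69% each way beside 12% higher and 10.4% lower among all genes. Only 1 gene of the list passed in GTEA7 without DMSO replicate 1 or 3 or GTEA7 replicate 2 or 3, since MAP2K4 did not (adjusted p 0.053 to 0.14, edgeR). With library size only, 0 rose and 4 fell in GTEA7, and MAP2K4 did not pass (adjusted p = 0.2, edgeR).

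Of 9 cell cycle and repair partners of GADD45 proteins, 3 rose and 4 fell in GTEA1 (2 and 4 with library size only). As shares, 3 and 4 were 33.3% and 44.4%, beside 35.6% and 36.2% of all genes. CDK1 (-1.37 ± 0.05) and CCNB1 (-1.75 ± 0.05), the kinase and cyclin of entry into mitosis, PCNA (-1.48 ± 0.05) and the repair endonuclease APEX1 (-0.71 ± 0.04) fell. CDKN1A, the p21 gene (2.05 ± 0.04), ING1 (0.54 ± 0.06) and TDG, a DNA glycosylase (0.25 ± 0.05), rose. TDG did not pass with library size only (log2 fold change 0.09, adjusted p = 0.14, edgeR). GADD45GIP1, whose protein binds GADD45 proteins, was at 0.00 ± 0.09 in GTEA1 and -0.10 ± 0.09 in GTEA7. In GTEA7, 0 of the 9 passed by edgeR, limma-voom or DESeq2 (PCNA was at 0.12 ± 0.05, ING1 at -0.15 ± 0.06 and TDG at 0.10 ± 0.05), and 3 had an unadjusted p under 0.05 in edgeR. In other edgeR fits, 1 gene at a time passed, and not always the same one. ING1 passed as a fall with library size only and without DMSO replicate 3 or GTEA7 replicate 2. PCNA passed as a rise with no low-count filter, with the replicate number as a block and without GTEA7 replicate 4.

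**Figure D4:**
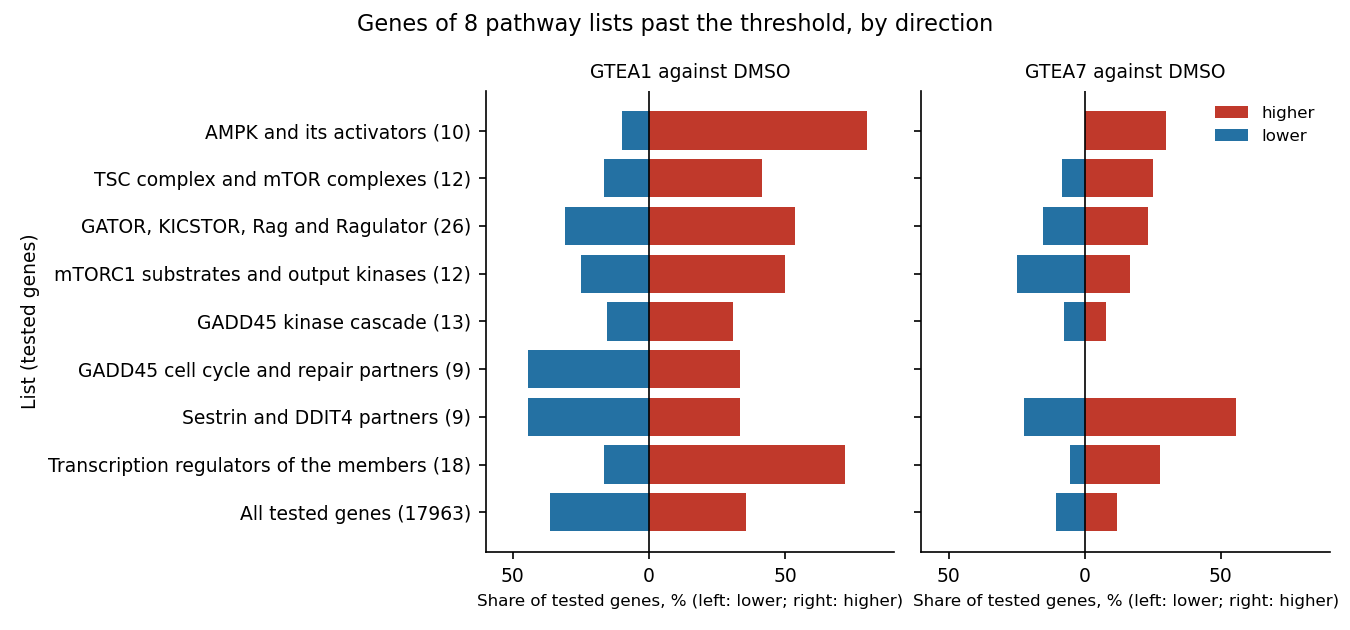
Share of the tested genes of each list that passed in edgeR's test, higher to the right and lower to the left, for both extracts against DMSO, with all tested genes in the bottom row (35.6% higher and 36.2% lower in GTEA1, 12% and 10.4% in GTEA7). In GTEA1 the AMPK list (80% higher) and the transcription regulators (72.2%) have the longest bars to the right.

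Factors known to act on these genes were mostly higher in GTEA1: of 18, 13 rose and 3 fell, and the median was 0.46 on the log2 scale (11 and 4 with library size only). As shares, 13 and 3 were 72.2% and 16.7%, beside 35.6% and 36.2% of all genes. DDIT3, which encodes CHOP (5.34 ± 0.09), ATF3 (3.61 ± 0.07), EGR1 (1.68 ± 0.09), ATF4 (1.48 ± 0.04) and CEBPB (1.38 ± 0.06) led. FOXO3 (0.78 ± 0.04), EPAS1 (0.70 ± 0.04), HIF1A (0.56 ± 0.04), ZBTB7A (0.56 ± 0.05), RELA (0.36 ± 0.04) and NR3C1 (0.31 ± 0.05) rose as well. SP1 (0.19 ± 0.03) and NFYA (0.17 ± 0.04) also passed, but not with library size only. BRCA1 (-1.59 ± 0.06), NFKB1 (-0.43 ± 0.06) and FOXO1 (-0.39 ± 0.08) fell. FOXO4 was at 0.08 ± 0.08, and MYC was at -0.06 ± 0.04 and passed only with library size only (-0.22).

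In GTEA7, 5 of the 18 rose and 1 fell (4 and 3 with library size only), or 27.8% and 5.56% beside 12% and 10.4% of all genes. MYC (0.36 ± 0.03), HIF1A (0.44 ± 0.04), ATF3 (0.35 ± 0.10), ATF4 (0.16 ± 0.04) and NR3C1 (0.14 ± 0.05) rose, the last with an adjusted p of 0.043 in edgeR that was not kept with library size only, the replicate block, DESeq2's test, or without any 1 of DMSO replicates 1, 2 and 3 and GTEA7 replicates 2, 3 and 4 (0.053 to 0.22). EGR1, known as an early response factor, was the one that fell (-0.43 ± 0.10), and did not pass without DMSO replicate 1 (-0.38; adjusted p = 0.058). ATF4 and ATF3 were thus higher in GTEA7 while DDIT4, SESN2 and GADD45A were lower, and DDIT3 was at -0.18 ± 0.18 (adjusted p = 0.55, edgeR). Whether these levels bear on the family was not tested.

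**Figure D5:**
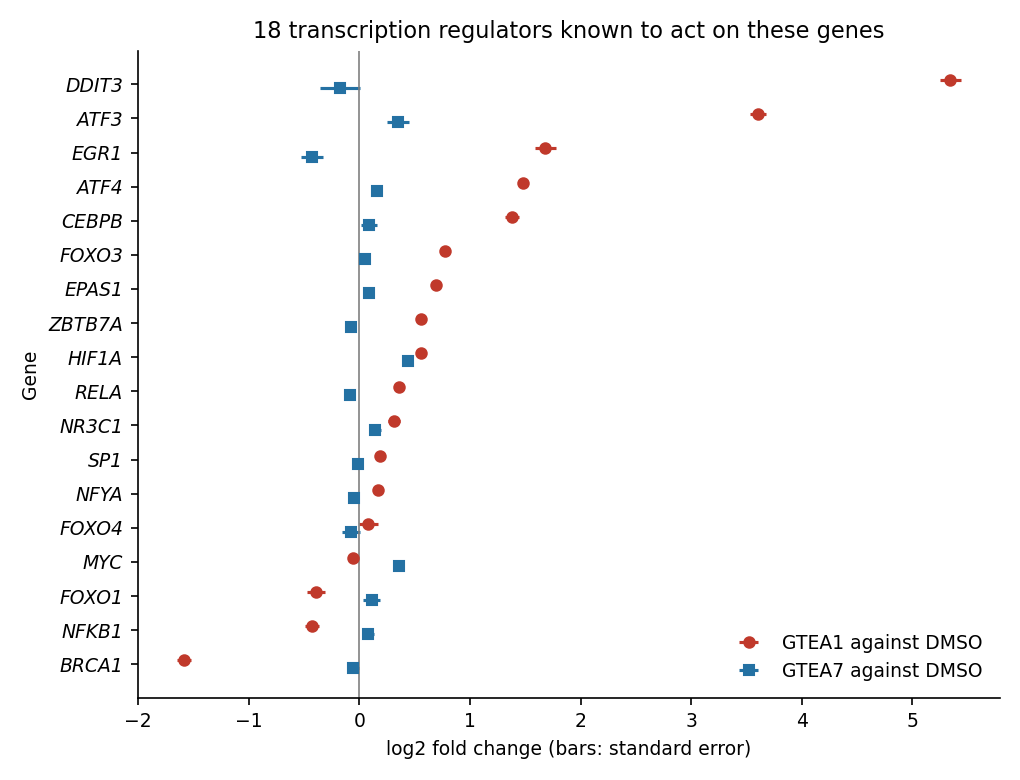
Log2 fold change, with standard error, of the 18 transcription regulators in each extract against DMSO, ordered by the value in GTEA1. DDIT3 (5.34) and ATF3 (3.61) are furthest to the right in GTEA1 and BRCA1 (-1.59) furthest to the left, while the values in GTEA7 lie between -0.43 (EGR1) and 0.44 (HIF1A).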

How the data were processed

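RNA of 11 HCT116 libraries was sequenced after poly-A selection, per the labels' protocols. The authors deposited raw read counts per gene, 1 column per library. HTSeq 0.5.4, DESeq 1.10.1, STAR and SAMtools 0.1.18 stand in the submitters' processing notes, beside Picard and GATK, with no role given. For the genome build, gene models and strand option, the sources used here give no statement. Libraries were grouped by their labels. Symbols came from a table of gene names (60370 of 60624 Ensembl IDs), and lengths and overlaps from GENCODE v29. IDs outside Ensembl held 0.727% of the counts and stayed in the tests.

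Genes were filtered with filterByExpr and scaled by TMM, and edgeR 4.0.16 (R 4.3.3) fitted a single robust quasi-likelihood model to the 11 libraries. The code was tested on simulated data with known changes. P-values were adjusted by Benjamini-Hochberg over the 17963 genes of each comparison. Standard errors were derived from the fold change and F. Log2 CPM used a prior count of 2. Alternatives were DESeq2 size factors, library size only, no filter, at least 1 CPM in 3 libraries, the replicate number as a block, the compared groups alone, limma 3.58.1 (voom), DESeq2 1.42.0 and leaving out each library. Median-length transcripts were added after seeing the data. Named were the 7 genes, the regulators, up to 4 genes per list with the smallest adjusted p per extract, all genes of a count of 5 or fewer, and the 3 most similar genes per member with a mean of at least 1 CPM. PRKAA1, PRKAA2, MAP3K4, RPS6KB2 and TXNIP were named for their role after their values were seen. Some list genes are not reported here and were left out of the counts of their lists. The genes and lists were chosen with earlier results of these data known.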

Additional observations from a re-analysis of the deposited data

How the results depend on the processing

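The calls of the 6 tested genes held in all 3 comparisons under every alternative tried, with 1 exception. SESN1 in GTEA1 against DMSO, at -0.11 and not past the threshold, was at -0.27 and passed with library size as the only scaling. That scaling moved the all-gene median to -0.167 in GTEA1 against DMSO, -0.06 in GTEA7 against DMSO and 0.11 in GTEA7 against GTEA1. In GTEA7 against DMSO it gave 1255 genes higher and 2954 lower, in place of 2159 and 1877, and in GTEA1 against DMSO 4828 and 8179 in place of 6390 and 6505. Without each library in turn, the GTEA1 log2 fold changes ranged from 2.06 to 2.20 for DDIT4, from 3.05 to 3.25 for SESN2, from -1.77 to -1.69 for SESN3, from 2.24 to 2.28 for GADD45A and from 2.81 to 2.96 for GADD45B. In GTEA7 they ranged from -0.81 to -0.66 for DDIT4, from -0.74 to -0.55 for SESN2, from -0.35 to -0.27 for SESN3 and from -0.23 to -0.19 for GADD45A. Same-numbered libraries deviated together no more than others (r from -0.055 to 0.0262 over 10 pairs, beside -0.0406 to 0.0434 for pairs of different numbers). Only 1 of 11 libraries correlated best with its own number. Whether shared cultures would show in such values was not tested. With the replicate block, 12725 genes passed in GTEA1 against DMSO, 4087 in GTEA7 against DMSO and 13016 in GTEA7 against GTEA1, and no call of the 6 genes changed. Counts of 48 to 121 per library limit SESN2 and GADD45B in DMSO and GTEA7, and GADD45G, with 21 counts in all, could not be compared.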
